A study of Mus musculus with 17 samples.

Results

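Motile cilium genes were followed across bulk RNA-seq libraries of sorted mouse brain cells and of cortex. The set held 74 of the 21640 genes in the count table. Members were genes with a Cfap, Dnah, Dnai, Rsph, Tekt, Spag or Drc symbol followed by a number (no gene carried a Dnai symbol of this form), together with Foxj1, Ccdc39 and Ccdc40, that had at least 10 counts summed over all 17 libraries. In all 77 symbols fitted the naming rule, and the count minimum removed Cfap97d1 with 8 counts, Rsph6a with 3 and Tekt5 with 3. The members just inside the minimum were Spag6 and Tekt2 with 11 counts each and Cfap58 with 24. The summed count is the measured value that chose the members. By symbol the set held 32 cilia and flagella associated proteins (CFAP), 15 axonemal dynein heavy chains, 10 sperm associated antigens (SPAG), 7 radial spoke genes, 5 genes of the nexin-dynein regulatory complex and its ruler, 4 tektins and the transcription factor Foxj1.

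The libraries fell into 4 groups of adult mice, all given tamoxifen in the animals that carried an inducible Cre. There were 3 libraries of astrocytes, sorted as tdTomato-positive cells from the cerebral cortex of hGFAPCreER:Ai14 mice, in which a human GFAP promoter drives the Cre. There were 6 libraries of WT cortex homogenate. There were 2 libraries of arteriolar smooth muscle cells (aSMCs), sorted as tdTomato-positive cells of SMACreER:Ai14 mice, and 6 libraries of aSMCs of SMACreER:Ai47 mice, sorted as EGFP-positive cells. In both, a smooth muscle actin promoter drives the Cre. These last 2 groups are called Ai14 aSMCs and Ai47 aSMCs here. A driver marks every cell in which its promoter was active when tamoxifen was given, whatever that cell's type. The paper counts its cortex samples and its sorted aSMC samples, from the mice with EGFP, as mice. For the Ai14 aSMC and astrocyte libraries the sources name no separate animals. In comparisons with these groups p-values measure the spread between libraries, which may be technical.

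A motile cilium is a beating hair built on a ring of paired microtubules. Outer and inner dynein arms, made of heavy chains and smaller chains, slide the pairs past each other. Radial spokes and the nexin-dynein regulatory complex turn sliding into bending, a molecular ruler of Ccdc39 and Ccdc40 sets where they attach, and tektins and many CFAP proteins line the microtubules. In the adult brain such cilia are carried in tufts by ependymal cells, which line the ventricles. Choroid plexus epithelium also carries cilia in tufts, though whether these beat in the adult is not taken up here. Astrocytes, neurons and smooth muscle cells carry at most a single primary cilium, which lacks the beating machinery. Foxj1 is the transcription factor that switches on the motile cilium program, and factors of the RFX family act on many of the same genes. Most Spag and Tekt genes are known from sperm flagella, which share this machinery, but Spag9 is a scaffold of kinase signalling and cargo transport that is used in many cell types.

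Library totals were 4537137 to 7390630 counts in astrocytes, 5397905 to 7288036 in cortex, 14870507 and 14979228 in Ai14 aSMCs and 41499087 to 53643624 in Ai47 aSMCs. Levels are counts per 1000000 counts (CPM) after TMM scaling, which adjusts each library for its RNA composition. At these depths 3 counts, the least taken as a level here, were worth 0.091 to 0.775 CPM in a single library, and this limit covers counting error only. The share of counts from mitochondrially encoded genes was 10.7% to 12.5% in astrocytes, 35.7% to 72.9% in cortex, 16.8% and 17.6% in Ai14 aSMCs and 0.214% to 0.559% in Ai47 aSMCs. With these genes left out of the fit, 54 members were higher in astrocytes than in cortex and 1 was lower, beside 53 and 1 with them. The 10 smooth muscle markers summed to 10947 and 11684 CPM in Ai14 aSMCs and to 6330 CPM or more in every Ai47 library.

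The astrocyte label was only partly borne out by astrocyte markers. Of 12 such genes tested in astrocytes against cortex, 2 were higher (Gja1 and Sox9), 3 were lower (Slc1a2, Slc4a4 and Gjb6) and 7 did not pass the test. Of all genes tested, 14.6% were higher and 19.8% lower. Gja1 and Sox9 stood higher still in every Ai47 aSMC library, at 903 to 1403 CPM and 272 to 482 CPM, so these 2 calls do not set the astrocyte libraries apart from Ai47 aSMCs. Of the 12 markers 8 were higher and 3 lower in astrocytes than in Ai47 aSMCs, beside 23.8% and 26.1% of all genes. Gjb6, a connexin of cortical astrocytes, had no count in any of the 3 astrocyte libraries and 2.07 to 32.9 CPM in cortex. Aldh1l1, a defining astrocyte marker, stood at 0, 58.4 and 0.455 CPM in astrocyte libraries 1, 2 and 3. Slc1a2, the main glial glutamate transporter, stood at 216, 627 and 129 CPM against 3019 to 16471 CPM in cortex. The water channel Aqp4 was at 564, 506 and 460 CPM, above every cortex library (19.6 to 136 CPM), but did not pass the test (log2 difference 2.61, SE 1.24, adjusted p = 0.107). The libraries are therefore called astrocytes only as labelled. All 12 neuron markers were lower than in cortex, summing to 0.0936 to 4.30 CPM against 583 to 946 CPM.

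The 74 motile cilium genes took 0.848% to 1.0% of all counts in astrocytes, 0.0207% to 0.0709% in cortex, 0.0881% and 0.0396% in Ai14 aSMCs and 0.112% to 0.140% in Ai47 aSMCs. Their CPM summed to 4247, 6437 and 3166 in the astrocyte libraries and to 230.6 to 380.2 in cortex. The 2 Ai14 aSMC libraries, replicates 7 and 8, summed to 398.7 and 179.9 CPM, and the Ai47 aSMC libraries to 2037 to 3045 CPM. The astrocyte and Ai47 sums were thus both high, but they were made of different genes. In bulk samples such as these, fewer cells of a type and less RNA per cell cannot be told apart. In Ai47 aSMCs Cfap20 and Spag9 together made up 89.7% to 96.5% of the sum. Without these 2 genes the Ai47 sum was 106 to 209 CPM, overlapping that of cortex (121 to 176 CPM), while the astrocyte sum stayed at 4142, 6425 and 3089 CPM. Spag9 also made up 37.7% to 62.4% of the sum in cortex, whereas the top gene of the astrocyte libraries held 7.50% to 11.6% of theirs.

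**Figure D1:**
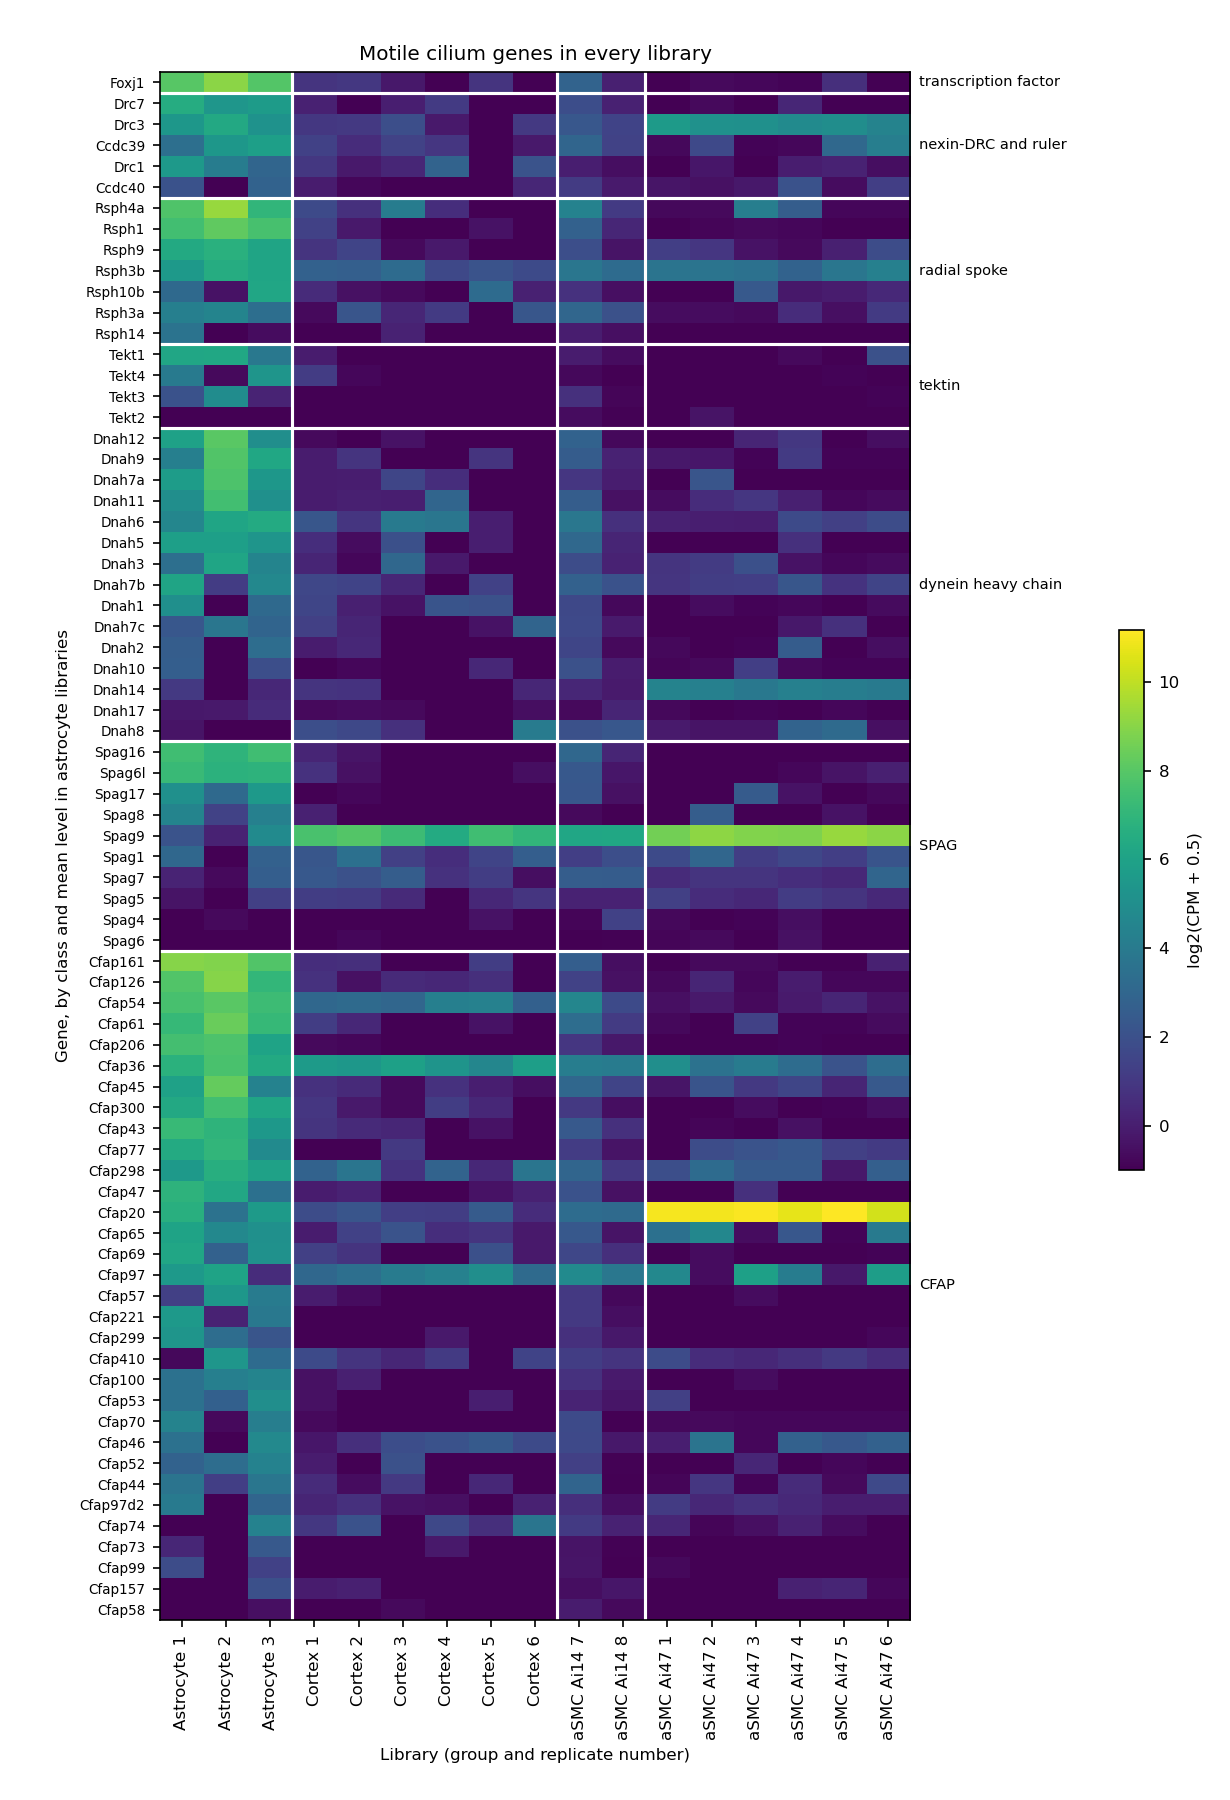
Level of each of the 74 motile cilium genes (rows, grouped by class) in each of the 17 libraries (columns, grouped by cell source), as log2(CPM + 0.5). Most rows are high in the 3 astrocyte libraries alone, while Cfap20 and Spag9 are the highest rows in the 6 Ai47 aSMC libraries, where Drc3 (21.3 to 49.5 CPM) and Dnah14 (14.3 to 21.4 CPM) were also present throughout.

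Most members were detected in more groups than the astrocytes. With 10 or more counts per group as the limit, 46 members were present in all 4 groups, 2 in a single group (Cfap58 and Spag4) and 2 in none (Spag6 and Tekt2). This limit is not scaled to depth, which differed between the groups, and its share over all genes was not taken. Counts were present for 68, 56 and 70 members in the 3 astrocyte libraries, for 29 to 61 in cortex, for 73 and 69 in Ai14 aSMCs and for 40 to 53 in Ai47 aSMCs. Over all genes in the table they were present for 11405, 9083 and 12827 in astrocytes and for 12164 to 15941 in cortex. In Ai14 aSMCs this held for 17021 and 16882 genes and in Ai47 aSMCs for 15231 to 15802. The number of members detected is therefore not particular to the members. A mean of 1 CPM was reached by 66 members in astrocytes, 28 in cortex, 49 in Ai14 aSMCs and 25 in Ai47 aSMCs. At least 1 CPM in every library was reached by 45, 5, 21 and 8 members in the same order.

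The groups were compared with edgeR's quasi-likelihood test in 1 fit of all 17 libraries over 14927 genes, with a Benjamini-Hochberg adjusted p under 0.05 over all of them. A filter on low counts passed 68 members, and Cfap157, Cfap58, Rsph14, Spag4, Spag6 and Tekt2 were not tested. In astrocytes against cortex 53 of the 68 were higher and 1, Spag9, was lower, where 14.6% and 19.8% of all genes tested were higher and lower. The median log2 difference of the 68 was 5.17, or 5.02 with the 3 genes that lacked any cortex count set at their lower bound, and the median of all genes was -0.08. In 47 members every astrocyte library lay above every cortex library, which held for 9.18% of all genes. A gene can pass the filter only because of the astrocyte libraries, and then tends to differ. There were 17 such members, 16 of them higher, and 51 that reached the filter in the other libraries, 37 of them higher, beside 1850 of 14345 genes of that kind. Some of the 51 reached it through aSMC libraries and were near 0 in cortex. In cortex itself 36 members reached it, 24 of them higher, and the share of all such genes was not taken. Without the filter, 46 of 74 members were higher, beside 9.55% of genes.

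Against Ai47 aSMCs 51 members were higher in astrocytes and 3 were lower (Cfap20, Dnah14 and Spag9), beside 23.8% and 26.1% of all genes. The median log2 difference was 5.99 for the members and -0.22 for all genes. Against Ai14 aSMCs 17 were higher and Spag9 was lower, beside 3.56% and 13.6% of all genes, with medians of 4.04 and -0.34. This count rested on both Ai14 libraries: without replicate 7 it was 5 and without replicate 8 it was 2, where 0.671% and 0.246% of genes were higher. The call of Spag9 was lost without either Ai14 library or without astrocyte library 1. These comparisons share the astrocyte libraries, so their counts are not independent of each other.

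**Figure D2:**
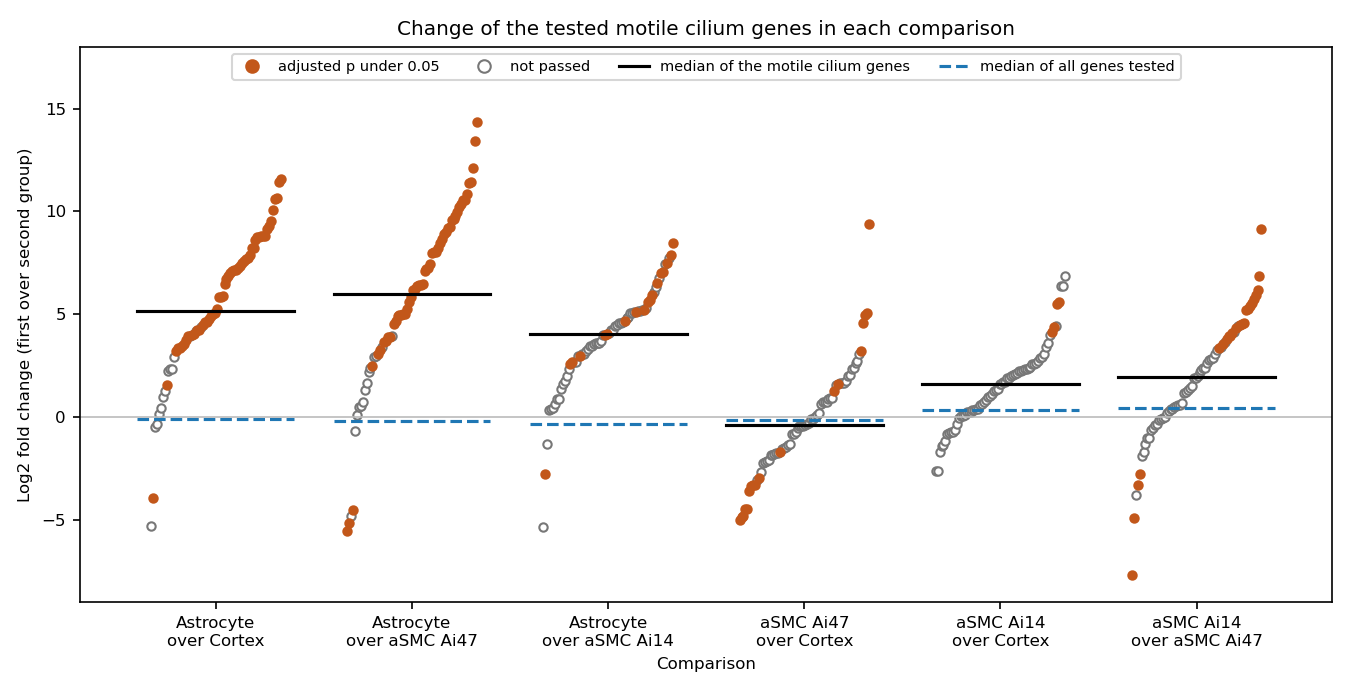
Log2 difference (vertical axis) of each of the 68 tested motile cilium genes in the 6 comparisons of groups (horizontal axis), with filled points for an adjusted p under 0.05. The black line marks the median of the members and the blue dashed line the median of all 14927 genes, and the 2 medians lie far apart in the 3 comparisons with astrocytes (5.17, 5.99 and 4.04 against -0.08, -0.22 and -0.34).

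Foxj1 (ENSMUSG00000034227.7, chromosome 11, 116330704 to 116335399 on the minus strand, GRCm38), the switch of the motile cilium program, stood at 258, 525 and 237 CPM in the astrocyte libraries. The 6 cortex libraries held 1.25, 1.43, 0.374, 0, 1.29 and 0 CPM. Ai47 aSMCs held 0, 0.114, 0.0811, 0.0368, 1.05 and 0 CPM. Every astrocyte library thus lay far above every cortex and every Ai47 library, and the 2 Ai14 libraries stood apart from each other at 6.94 and 0.546 CPM. The mean was 340 ± 160.3 CPM (SD, n = 3) in astrocytes and 0.726 ± 0.675 CPM (SD, n = 6) in cortex. Foxj1 was higher in astrocytes than in cortex by 8.81 on the log2 scale (SE 1.29, adjusted p = 5.91e-05), than in Ai47 aSMCs by 10.57 (SE 1.36, adjusted p = 4.13e-06) and than in Ai14 aSMCs by 6.5 (SE 1.90, adjusted p = 0.0227). On the log2(CPM + 0.5) scale the astrocyte and cortex means differed by 8.25, with p = 0.0119 in a two-sided exact permutation test, the smallest that its 84 assignments allow. The difference from Ai14 aSMCs missed the threshold without replicate 7 (9.37) or without replicate 8 (5.78). Ai47 aSMCs and cortex did not pass the exact permutation test (difference -0.69, p = 0.160) or edgeR's (log2 difference -1.76, adjusted p = 0.154), and passed edgeR's without Ai47 replicate 5 (-3.63).

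Other genes that build or drive the multiciliated state were measured from a list outside the set. Of 10 tested, 7 were higher in astrocytes than in cortex, beside 14.6% of all genes. Rfx2 and Rfx3, factors of the RFX family, stood at 123, 20.9 and 124.5 CPM and at 201, 468 and 102 CPM. Rfx3 was also present in every other library, at 14.8 to 130 CPM, and differed from cortex by 2.66 (SE 0.52, adjusted p = 0.000701). Myb, which acts early in multiciliated cells, stood at 122, 397 and 82.9 CPM against 0 to 0.998 CPM in cortex (log2 difference 9.06, SE 1.25, adjusted p = 3.32e-05). Genes that act while centrioles are being multiplied were not uniformly present. Mcidas had no count in the 3 astrocyte libraries and Deup1 stood at 0.375, 0 and 0 CPM, and neither was tested. Ccno stood at 0, 80.8 and 17.6 CPM, and Gmnc at 0, 79.9 and 1.57 CPM, so both were led by astrocyte library 2.

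Since RFX factors and Foxj1 are known regulators of these genes, the members' promoters were searched for their letters, in RefSeq windows from 250 bases before to 50 bases after each start (GRCm38.p6). A window was found for 61 of the 74 members, and Foxj1 was not among them. The core letters of an RFX site, GTTGCC on either strand, lay in the windows of 23 of the 61 members (37.7%) and of 14.1% of all 27025 genes in the table. The X-box, a paired RFX site in which the core letters can overlap, lay in 1 member (1.64%, against 0.529% of all genes). The forkhead letters TGTTTAC, on either strand, lay in 4 members (6.56%, against 4.05%). The core letters were held by 17 of 44 members that were higher in astrocytes than in cortex, 3 of 11 that did not pass the test, 3 of 5 that were not tested and not by Spag9. A match describes letters and is not a measured binding site. The sites below, chosen after the matches were seen, lay before the start, each shown on the gene's own strand with every match in capitals. Cfap298 is shown for the X-box, Cfap161 and Spag16 for several matches close together, Cfap300, Dnah7a and Tekt1 as members of different classes that were higher in astrocytes than in cortex, and Cfap20 because it was the member that led in another cell type.
Cfap298 (chr16:90935016-90935045, minus strand, centred 181 bases before the start): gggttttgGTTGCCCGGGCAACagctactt
Cfap161 (chr7:83794888-83794917, minus strand, 63 bases before): tcttgaccaactGGCAACtGGCAACtgcct
Cfap161 (chr7:83794861-83794890, minus strand, 36 bases before): cctggtcgtcatGGCAACgaagcacgctaa
Spag16 (chr1:69826855-69826884, plus strand, 100 bases before): actaGGCAACgcGTTGCCgtagtaactgcg
Cfap300 (chr9:8042980-8043009, minus strand, 119 bases before): aacacaaagactGGCAACctccttccattt
Dnah7a (chr1:53706967-53706996, minus strand, 197 bases before): tcgctcctcacaGTTGCCtgccaccctctg
Tekt1 (chr11:72361900-72361929, minus strand, 32 bases before): tcttctaactagGGCAACgttgcgtccgtc
Cfap20 (chr8:95434946-95434975, minus strand, 91 bases before): gaatagtcccttGGCAACcaagttccgcgc

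The dynein heavy chains, the motors of the arms, summed to 373, 1111 and 387 CPM in astrocytes, 9.04 to 32.3 CPM in cortex, 65.6 and 14.2 CPM in Ai14 aSMCs and 21.5 to 44.3 CPM in Ai47 aSMCs. Of 15 tested against cortex, 9 were higher (Dnah3, Dnah5, Dnah6, Dnah7a, Dnah7b, Dnah9, Dnah10, Dnah11 and Dnah12), beside 14.6% of all genes, and 6 did not pass, with a median log2 difference of 4.45. The outer arm motors Dnah5, Dnah9 and Dnah11 were all among those higher. Dnah5 was even across the astrocyte libraries, at 57.0, 58.9 and 40.0 CPM. Dnah9 stood at 18.8, 232 and 75.4 CPM and Dnah11 at 32.1, 178 and 34.5 CPM, both led by library 2. Dnah12, an inner arm motor, stood at 61.5, 266 and 32.0 CPM, with 3385 counts against 3 in all of cortex. The ratio of its pooled levels was 1282 (95% counting interval 438 to 6218). Dnah7a, another inner arm motor (its promoter match is given above), stood at 51.8, 220.1 and 42.7 CPM against 0 to 2.37 CPM in cortex (log2 difference 7.14, SE 1.75, adjusted p = 0.00427). Dnah7a, Dnah7b and Dnah7c are close copies whose reads may have been split between them, so their separate levels are uncertain.

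Not all heavy chains followed this pattern. Dnah8, known from sperm, stood at 0.281, 0 and 0 CPM in astrocytes and at 0 to 16.3 CPM in cortex, and did not pass the test (log2 difference -5.31, SE 2.18, adjusted p = 0.0638). Dnah14 stood at 1.5, 0 and 0.758 CPM in astrocytes and 0 to 1.25 CPM in cortex, but at 14.3 to 21.4 CPM in all 6 Ai47 aSMC libraries. It was higher in Ai47 aSMCs than in cortex by 4.97 (SE 1.09, adjusted p = 0.000759). Dnah1 stood at 32.5, 0 and 8.34 CPM in astrocytes and did not pass against cortex (log2 difference 2.93, SE 1.43, adjusted p = 0.116). Against Ai14 aSMCs none of the 15 heavy chains passed in edgeR, where 4 had an unadjusted p under 0.05, while DESeq2 called 6 of them higher in astrocytes. Dynein intermediate chains carried older symbols in the table and so lay outside the set. Of these, Dnaic2 stood at 139, 24.7 and 0.758 CPM in astrocytes and 0 to 2.65 CPM in cortex (log2 difference 5.75, SE 1.28, adjusted p = 0.00208), and Dnaic1 at 8.80, 0 and 12.2 CPM (2.64, SE 1.70, adjusted p = 0.237).

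The radial spoke genes summed to 570, 1130 and 547 CPM in astrocytes and 5.54 to 27.7 CPM in cortex, and 5 of 6 tested were higher, beside 14.6% of all genes. Rsph1, of the spoke head, stood at 179, 290 and 195 CPM in astrocytes, 0 to 2.05 CPM in cortex and 0 to 0.122 CPM in Ai47 aSMCs. It was higher in astrocytes than in cortex by 8.81 (SE 1.18, adjusted p = 2.73e-05). Rsph4a, also of the head, stood at 222, 619 and 128 CPM in astrocytes. In cortex it stood at 2.85, 1.11, 17, 0.989, 0 and 0 CPM, so a single library held most of its cortex signal (log2 difference 6.44, SE 1.65, adjusted p = 0.00558). Rsph9, the third head gene, was even at 84.1, 106 and 69.5 CPM. Rsph3b, of the spoke stalk, stood at 45.4, 92.9 and 70.5 CPM against 2.57 to 9.11 CPM (log2 difference 3.76, adjusted p = 0.000159) and was also found in every library of the other groups. Its near copy Rsph3a, which may share its reads, was higher by 3.20 (adjusted p = 0.0349). Rsph10b, at 8.52, 0.254 and 72.7 CPM, did not pass.

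All 5 genes of the nexin-dynein regulatory complex and ruler were higher in astrocytes than in cortex, beside 14.6% of all genes, with a median log2 difference of 4.98. Ccdc39 stood at 10.3, 42.5 and 58.6 CPM against 0 to 2.12 CPM in cortex (log2 difference 4.98, SE 1.4, adjusted p = 0.0102). Its ruler partner Ccdc40 stood at 3.75, 0 and 6.67 CPM against 0 to 0.756 CPM (3.97, SE 1.48, adjusted p = 0.0425), and lost this call when any of 7 of the 9 libraries was left out. Drc7 was high in all 3 astrocyte libraries at 91.1, 42.0 and 51.2 CPM (7.12, SE 1.51, adjusted p = 0.00147). Against Ai47 aSMCs 2 of the 5 were higher in astrocytes, beside 23.8% of all genes. Ccdc39 reached 18.2 CPM in Ai47 replicate 6 and 7.43 CPM in Ai14 replicate 7, and Drc1 reached 6.92 CPM in cortex replicate 4. Drc3 was well above its cortex level in every Ai47 aSMC library. It stood at 43.6, 81.4 and 36.0 CPM in astrocytes, 0 to 3.24 CPM in cortex, 4.38 and 2.24 CPM in Ai14 aSMCs and 21.3 to 49.5 CPM in Ai47 aSMCs. It was higher than in cortex both in astrocytes (5.26, SE 0.79, adjusted p = 7.65e-05) and in Ai47 aSMCs (4.56, SE 0.72, adjusted p = 2.82e-05).

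The tektins, filament proteins of the microtubule wall, summed to 93.1, 105 and 55.4 CPM in astrocytes and 0 to 2.17 CPM in cortex. Tekt1 stood at 74.3, 75.3 and 14.1 CPM in astrocytes and had counts in 1 cortex library (0.456 CPM), giving a log2 difference of 9.16 (SE 1.92, adjusted p = 0.00133). Tekt4 stood at 15.1, 0.127 and 40.6 CPM (5.83, SE 1.55, adjusted p = 0.00724). Tekt3 stood at 3.75, 29.6 and 0.657 CPM and had no count in cortex, so it was at least 108.3-fold higher over the group. The 3 astrocyte libraries thus differed in which tektin they held, library 2 having most of Tekt3 and nearly none of Tekt4. Tekt2 had no count in astrocytes or cortex.

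Among the SPAG genes, those known from the central pair of the axoneme behaved like the rest of the set. Spag6l stood at 149.9, 113 and 114.5 CPM in astrocytes and 0 to 1.14 CPM in cortex (log2 difference 8.73, SE 1.36, adjusted p = 0.000107). Spag16 (promoter match above) stood at 173, 121 and 170.1 CPM in astrocytes, 0.684, 0.318, 0, 0, 0 and 0 CPM in cortex and 0 in all 6 Ai47 libraries. It was higher in astrocytes than in cortex by 9.55 (SE 1.18, adjusted p = 3.89e-05), and at least 7546-fold higher than in Ai47 aSMCs. Spag17 stood at 34.1, 8.37 and 47.8 CPM and had 1376 counts where cortex had 1, so that the pooled levels stood in a ratio of 1563 (280.1 to 61778 by counting error). Spag6, the near copy of Spag6l, had no count in astrocytes. Spag9 went the other way, at 3.84, 0.634 and 27.6 CPM in astrocytes, 87.0 to 237.4 CPM in cortex, 71.9 and 76.0 CPM in Ai14 aSMCs and 382 to 636 CPM in Ai47 aSMCs. It was lower in astrocytes than in cortex (log2 difference -3.93, SE 0.82, adjusted p = 0.00126). Spag1, Spag5 and Spag7 did not pass, with log2 differences of 0.14, -0.50 and -0.37.

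Of 30 CFAP genes tested against cortex 26 were higher in astrocytes, beside 14.6% of all genes, with a median log2 difference of 6.93. Cfap161 (3 promoter matches), an inner microtubule protein, stood at 491, 468 and 230 CPM in astrocytes, 0 to 1.81 CPM in cortex and 0 to 0.582 CPM in Ai47 aSMCs (log2 difference from cortex 9.26, SE 1.36, adjusted p = 6.02e-05). Cfap126, also known as Flattop, stood at 233, 501 and 131 CPM against 0 to 1.14 CPM (8.73, SE 0.99, adjusted p = 4.05e-06). Cfap206, a protein at the base of the radial spokes, stood at 182, 217 and 65.2 CPM, with 4947 counts against 2 in cortex (ratio 2810, 95% counting interval 777 to 23206). These 3 genes stayed below 2 CPM in every library of cortex and Ai47 aSMCs. Cfap54 of the central pair was present at a low level in cortex, 6.24 to 19.6 CPM, and stood at 201, 269 and 165 CPM in astrocytes (4.21, SE 0.66, adjusted p = 0.000107). Cfap43 stood at 144, 119 and 44.6 CPM (7.50, SE 1.19, adjusted p = 0.00012) and Cfap300 at 81.2, 178 and 71.4 CPM (7.22, SE 1.1, adjusted p = 0.000112). Cfap221 stood at 46.1, 0.634 and 14.2 CPM and had no count in cortex or Ai47 aSMCs, a difference of at least 294.6-fold and 951-fold. Cfap36, known from primary cilia as well, differed by only 1.56 (adjusted p = 0.0397), at 110.2, 203 and 84.0 CPM in astrocytes and 23.5 to 59.4 CPM in cortex. Cfap46, Cfap52, Cfap74 and Cfap97 did not pass.

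**Figure D3:**
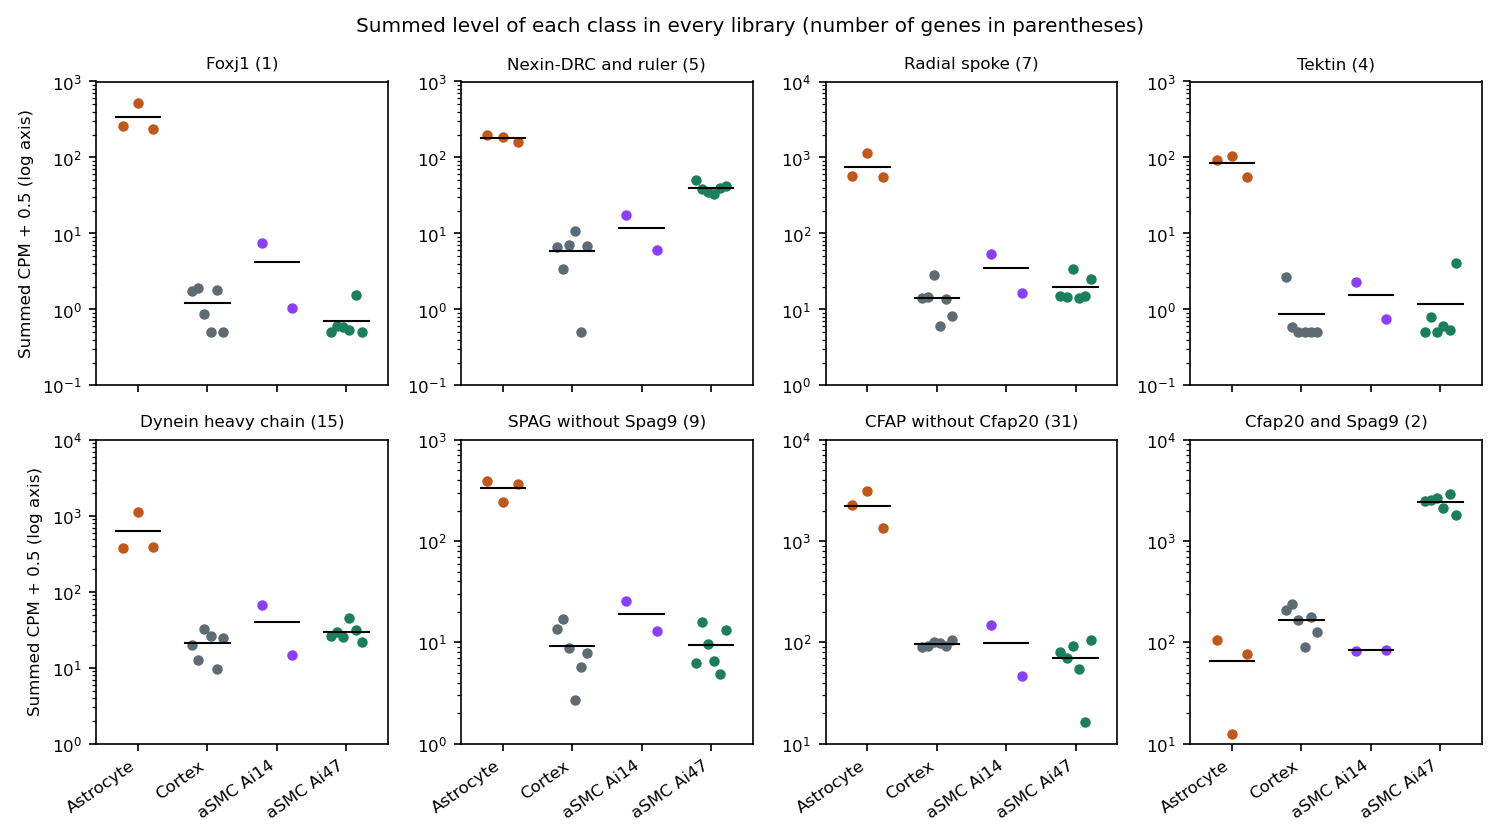
Summed CPM + 0.5 (logarithmic vertical axis) of each class of motile cilium genes in each library (points) of the 4 groups (horizontal axis), with a black line at the group mean. Cfap20 and Spag9 are left out of their classes and shown in the last panel. The 3 astrocyte libraries are the highest in every panel but the last, where Cfap20 and Spag9 together are highest in the 6 Ai47 aSMC libraries (1828 to 2939 CPM).

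Compared per kilobase of exon, so that genes could be set against each other, the highest mean levels in astrocytes were those of Cfap126 (162.5 CPM per kb), Rsph1 (161.3), Foxj1 (129.6), Cfap161 (124.3) and Rsph4a (88.5). In Ai47 aSMCs they were those of Cfap20 (431 CPM per kb) and Spag9 (45.0), and in cortex those of Cfap36 (16.4) and Spag9 (14.7). Only members were ranked, and they were chosen by symbols of the axoneme together with Foxj1. The kind of gene that leads thus follows from that choice, and the ranks describe levels alone.

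The level of single members differed between the 3 astrocyte libraries. Counts were present in all 3 for 55 members, while 12 were at 0 in 1 library, 5 in 2 and 2 in all. Among the 55 the highest library exceeded the lowest by a median of 5.15-fold, beside 9.45-fold over all tested genes with counts in all 3. Only 7 members lay within 2-fold across the libraries, namely Spag6l, Spag16, Dnah5, Rsph9, Rsph1, Cfap54 and Cfap100. A further 16 spread over more than 10-fold, led by Cfap410 at 0.0936, 41.9 and 9.20 CPM, a 447-fold spread, and by Tekt4 with 320-fold. The lead passed between libraries: 23 members were highest in library 1, 29 in library 2 and 20 in library 3, and library 2 lacked counts for 18 members. Spearman's rho between pairs of astrocyte libraries was 0.763 to 0.786 over the 74 genes, given as a description, since genes are not independent replicates.

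Some members stood mainly in 1 astrocyte library. In library 1 these were Rsph14 (12.1 CPM against 0 and 0.152) and Dnah1 (32.5 CPM against 0 and 8.34). In library 2 they were Tekt3 and Cfap410, at 13.4 and 9.01 times the mean of the other libraries. In library 3 they were Cfap74 (20.6 CPM) and Cfap157 (3.44 CPM), both at 0 in the other libraries. Cfap410 differed from cortex by 3.53 (adjusted p = 0.0217), and by 1.55 without library 2, where it no longer passed. Without library 3 the log2 difference of Cfap74 from cortex turned from 0.94 (adjusted p = 0.681) to -8.98.

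The 2 Ai14 aSMC libraries differed in nearly every motile cilium gene. Of the 74 members 67 were higher in replicate 7 and 7 in replicate 8 (Cfap157, Dnah17, Dnah8, Spag1, Spag4, Spag6 and Spag9). Among the 68 with counts in both, the median ratio of replicate 7 to replicate 8 was 5.0, beside 1.02 over 14022 tested genes with counts in both. More than 4-fold higher in replicate 7 were 37 of the 68 (54.4%), beside 4.84% of those genes. With 1 library on each side this compares 2 libraries and not conditions, and intervals cover counting error only. Foxj1 was 12.7 times as high in replicate 7 (95% counting interval 7.87 to 21.8), Rsph4a 12.8 times (9.68 to 17.3), Dnah12 73 times (24.6 to 357) and Cfap54 8.39 times (6.76 to 10.5). Cfap44 had 232 counts in replicate 7 and 0 in replicate 8, and Cfap70 had 94 and 0. The members that were high in Ai47 aSMCs did not follow, since Cfap20 stood at 9.50 and 8.64 CPM, a ratio of 1.10 (0.933 to 1.30), and Spag9 at 71.9 and 76.0 CPM, a ratio of 0.947 (0.895 to 1.0).

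**Figure D4:**
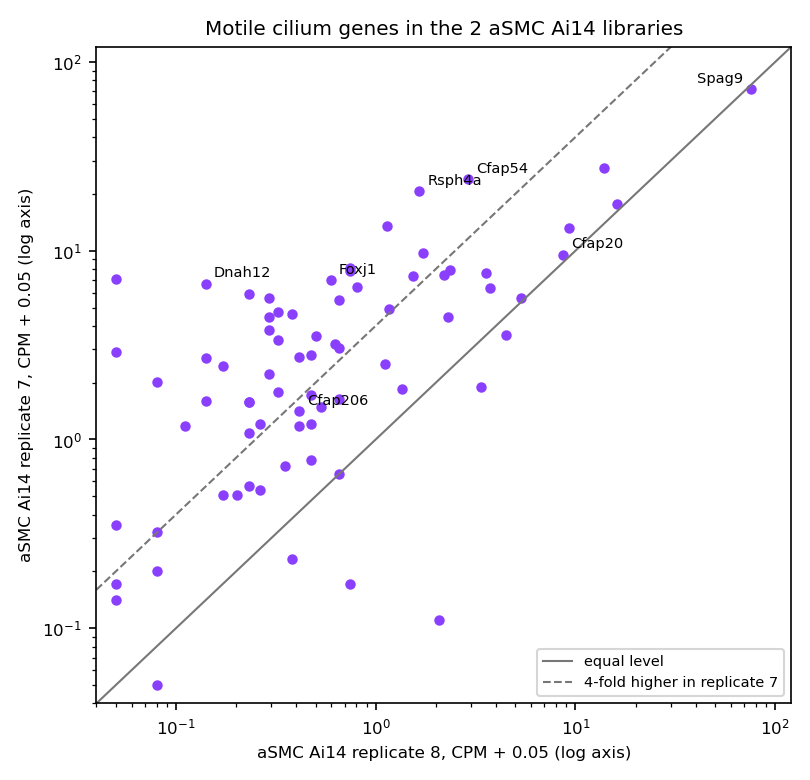
Level of each motile cilium gene in Ai14 aSMC replicate 8 and replicate 7 (CPM, both axes logarithmic), with a solid line where the 2 are equal and a dashed line where replicate 7 is 4-fold higher. Of the 68 genes with counts in both, 37 lie past the dashed line, while Cfap20 and Spag9 lie on the solid line.

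As a share of the astrocyte mean, the members' median level was 10.9% in replicate 7 and 1.49% in replicate 8. Ranked over the 74 genes, replicate 7 followed the astrocyte mean with a rho of 0.602 and replicate 8 with a rho of 0.240, given as a description. Among the marker lists, the ependymal list was 3.58 times as high in replicate 7 as in replicate 8, the choroid plexus list 9.28 times and the microglia list 2.60 times. The smooth muscle list was 0.937 times as high, the endothelial list 1.11, the neuron list 0.852 and the astrocyte list 0.712. The part of these other cells in the difference was not tested.

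Results for Ai14 aSMCs therefore leaned on replicate 7. Against cortex 4 members were higher (Cfap206, Cfap70, Dnah12 and Spag16), beside 3.97% of all genes, and none was lower, beside 2.0%. In this fit no member had an unadjusted p under 0.05 in the lower direction, while 2 did with RLE size factors, 1 without the filter, 1 without cortex replicate 5 and 3 in DESeq2. DESeq2 called none lower, and edgeR with the 2 groups alone called 2 lower. Without replicate 7 no member was higher in edgeR, where 1.31% of genes were and where 2 members had an unadjusted p under 0.05, and with both libraries DESeq2 called 1. Without cortex replicate 3 none was higher either, with 12 at an unadjusted p under 0.05, and without any 1 of cortex replicates 2, 4, 5 and 6 the count was 1. Spag16 differed from cortex by 4.36 (adjusted p = 0.0267), and by 1.66 without replicate 7. Cfap206 stood at 1.37 and 0.364 CPM and differed by 4.12 (SE 0.98, adjusted p = 0.0136). Against Ai47 aSMCs 19 members were higher in Ai14 aSMCs and 4 were lower (beside 16.0% and 9.55% of all genes), and 3 were higher without replicate 7, beside 5.29% of genes. Without any 1 of Ai47 replicates 1, 2, 4 and 5 the count of higher members was 11 or 12. Scaled by library totals alone, these counts were 39 and 1, beside 44.2% and 3.58% of all genes.

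Ai47 aSMCs held few motile cilium genes above cortex. Of the 68 tested 7 were higher (Cfap20, Cfap77, Dnah14, Drc3, Rsph3b, Spag17 and Spag9) and 11 lower, beside 24.1% and 26.5% of all genes, and with library totals alone as the scale the counts were 3 and 23, beside 14.2% and 39.0%. The lower genes were Cfap36, Cfap43, Cfap54, Cfap69, Cfap74, Cfap300, Dnah1, Drc1, Rsph1, Spag16 and Tekt4. The median log2 difference of the members was -0.41, and that of all genes -0.16. Cfap54 fell the most among those with a level in every cortex library (0.122 to 0.687 CPM in Ai47 aSMCs, log2 difference -5.01, SE 0.65, adjusted p = 2.31e-06).

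Cfap20 (chromosome 8, 95420249 to 95434869 on the minus strand, GRCm38), an inner junction protein of the axoneme that is expressed well beyond motile cilia, was the member with the highest level in the Ai47 libraries. It stood at 2082, 1965, 2188, 1675, 2303 and 1297 CPM there. In cortex it stood at 0.945 to 5.17 CPM, in Ai14 aSMCs at 9.50 and 8.64 CPM and in astrocytes at 101, 11.4 and 48.9 CPM. The groups did not overlap, and the 2 kinds of sorted aSMC lay far apart. These 2 also differed in library totals and mitochondrial share, given above. Reporter line and differences between the libraries cannot be told apart here. Cfap20 was higher in Ai47 aSMCs than in cortex by 9.40 (SE 0.63, adjusted p = 2.89e-10), and lower in Ai14 aSMCs than in Ai47 aSMCs (log2 difference -7.72, SE 0.99, adjusted p = 1.35e-05). It was also higher in astrocytes than in cortex by 4.25 (SE 0.55, adjusted p = 1.78e-05). Spag9 was higher in Ai47 aSMCs than in cortex by 1.61 (SE 0.55, adjusted p = 0.0189).

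Some of the other members were carried by 1 Ai47 library. Of 69 members with counts in Ai47 aSMCs, 39 had more than 50% of their summed CPM in 1 library (10 of them in replicate 3 and 10 in replicate 4), and in cortex this held for 38 of 70. Most of these were low: of the members with a mean of at least 1 CPM it held for 7 of 25 in Ai47 aSMCs and 8 of 28 in cortex. Dnah7a stood at 4.16 CPM in replicate 2 and 0 in the other 5. Tekt1 had 97.0% of its signal in replicate 6, Spag8 95.8% in replicate 2 and Cfap53 all of it in replicate 1. Spag17 had 93.4% in replicate 3, at 5.19 CPM, and its difference from cortex of 5.07 (adjusted p = 0.0225, with 138 counts against 1) was 1.81 without that library.

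Genes of cells that carry motile cilia were set beside the members. Of all genes 14.6% were higher in astrocytes than in cortex. All 16 ependymal markers, and the 15 left when Foxj1 was taken out, were higher, with a median log2 difference of 8.62 over the 16. They summed to 2118, 3749 and 1700 CPM in astrocytes, 2.07 to 12.9 CPM in cortex, 62.6 and 17.5 CPM in Ai14 aSMCs and 36.0 to 66.0 CPM in Ai47 aSMCs. Against Ai14 aSMCs 10 of the 16 were higher, beside 3.56% of all genes. Tmem212 stood at 299, 101 and 193 CPM, with counts in 1 cortex library alone (0.342 CPM). Rarres2, a secreted protein, stood at 299.6, 578 and 247 CPM against 0 to 8.73 CPM. Sntn, a protein of the cilium tip, stood at 84.8, 125 and 77.1 CPM and had no count in cortex. The list's only marker without counts in an astrocyte library was Tctex1d4, at 17.9, 0 and 7.83 CPM. Many of these markers are themselves cilium genes, so the list is not independent of the set in kind.

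Choroid plexus epithelium, the other ciliated cell of the ventricles, was marked less evenly. Of 12 markers 2 were higher in astrocytes than in cortex (Folr1 and Otx2) and 10 did not pass, beside 14.6% of all genes higher. Against Ai47 aSMCs 8 were higher in astrocytes (median log2 difference 6.28), beside 23.8% of all genes. They summed to 904, 1543 and 157 CPM in astrocytes and 16.8 to 1724 CPM in cortex. Most of this was Ttr, the transthyretin gene, at 709, 1243 and 3.03 CPM in astrocytes and 12.1 to 1676 CPM in cortex. Astrocyte library 3, nearly without Ttr, still held 157 CPM of the list, beside 3166 CPM of the members. The cortex library with 1676 CPM of Ttr held 351.8 CPM of the members. Ttr is a single marker of the 12, and the part of choroid plexus cells in the members' levels was not tested. For 3 of the 12 markers (Otx2, Folr1 and Sostdc1) every astrocyte library lay above every cortex library, beside 9.18% of all genes. For 0 of the 12 every astrocyte library lay below. Aqp1, a choroid plexus channel, stood at 0, 0.127 and 0 CPM in astrocytes. Against Ai14 aSMCs 3 of the 12 were higher in astrocytes, beside 3.56% of all genes.

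Markers of several other cells were lower in astrocytes. In astrocytes against cortex, 11 of 12 microglia markers, 11 of 12 endothelial markers and 7 of 10 smooth muscle markers were lower, beside 19.8% of all genes. Lower too were 4 of 9 oligodendrocyte markers and 1 of 5 fibroblast markers, the last near the share of all genes. Higher among them were Slc2a1, the brain glucose transporter, and Myl9, a myosin light chain. The part of any cell type in the members' levels was not tested.

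Most motile cilium genes that the naming rule left out were also higher in astrocytes than in cortex. Of 30 such genes, 24 were higher, beside 14.6% of all genes, and 6 did not pass, with a median log2 difference of 5.13. They summed to 1255, 2988 and 1020 CPM in astrocytes, 69.2 to 101 CPM in cortex, 143 and 51.8 CPM in Ai14 aSMCs and 29.6 to 160.5 CPM in Ai47 aSMCs. Against Ai14 aSMCs 3 of the 30 were higher in astrocytes, beside 3.56% of all genes. Hydin, of the central pair, stood at 16.6, 62.9 and 27.1 CPM against 0 to 0.684 CPM in cortex (6.56, SE 1.35, adjusted p = 0.00114). Zmynd10, needed to assemble dynein arms, stood at 24.6, 199.9 and 19.4 CPM (8.47, SE 1.49, adjusted p = 0.000301). The assembly genes Dnaaf1 and Dnaaf3, with counts in at most 2 astrocyte libraries, were among those that did not pass.

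Intraflagellar transport and Bardet-Biedl genes also serve primary cilia. Of all genes 14.6% were higher and 19.8% lower in astrocytes than in cortex. Of 23 tested here 13 were higher, 1 was lower (Kif3b, a kinesin motor) and 9 did not pass, with a median log2 difference of 2.84. They summed to 1069, 1979 and 908 CPM in astrocytes, 130.1 to 229 CPM in cortex, 251 and 193 CPM in Ai14 aSMCs and 516 to 752 CPM in Ai47 aSMCs. Ift80 stood at 99.9, 404 and 75.4 CPM in astrocytes (5.08, SE 0.79, adjusted p = 0.000102). Ift46 and Bbs7 led the Ai47 sum, at 165 to 321 CPM and 209 to 371 CPM.

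**Figure D5:**
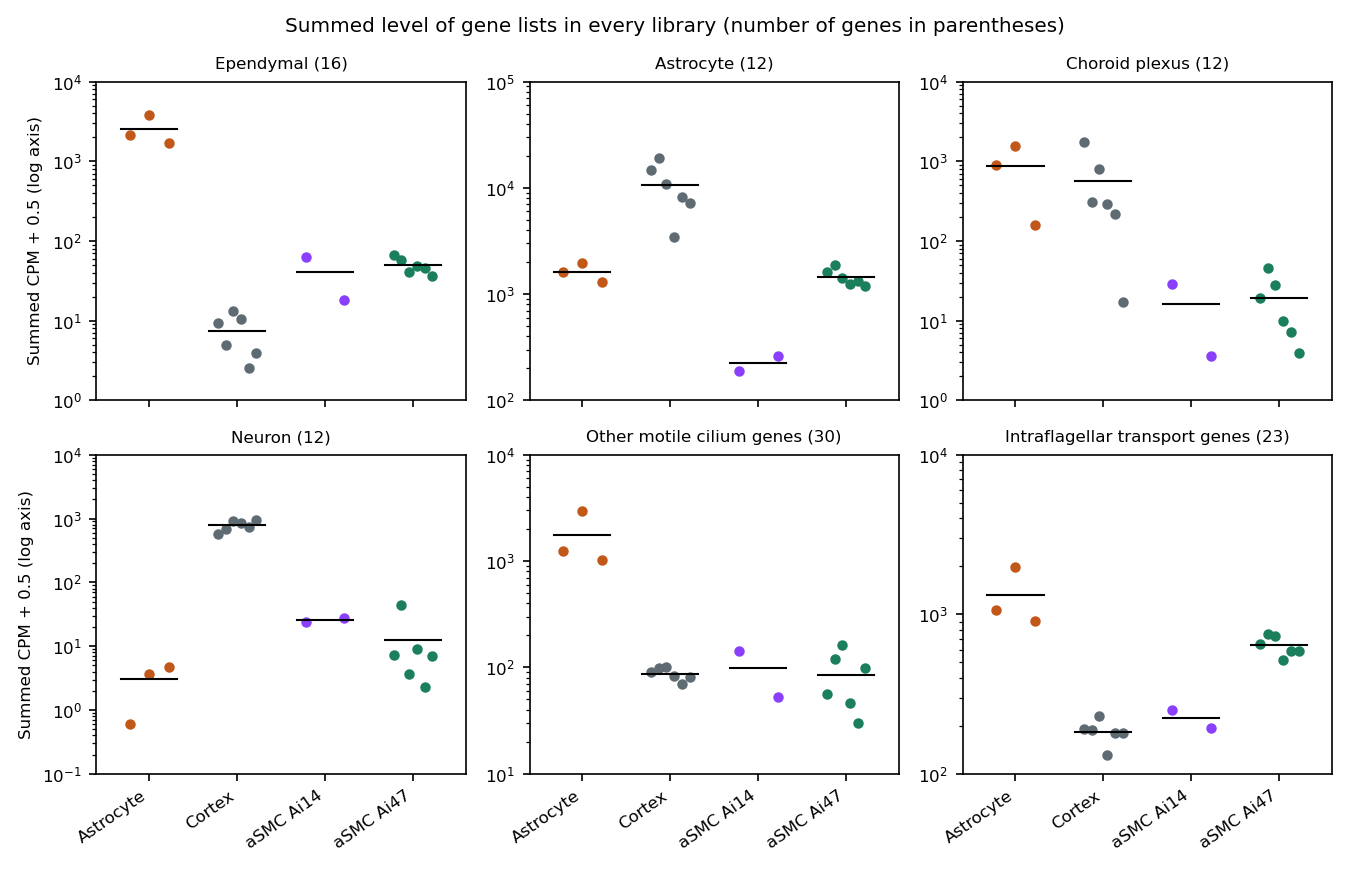
Summed CPM + 0.5 (logarithmic vertical axis) of 6 gene lists in each library (points) of the 4 groups (horizontal axis), with a black line at the group mean. Ependymal markers and the other motile cilium genes are highest in the 3 astrocyte libraries (1700 to 3749 and 1020 to 2988 CPM), whereas astrocyte markers are highest in cortex and choroid plexus markers overlap between astrocytes and cortex.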

How the data were processed

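Bulk RNA-seq had been measured in 17 libraries of 4 groups. The authors deposited raw counts of reads per gene symbol, whole numbers without normalization, one column per library, and all columns were used. The submitters' processing notes list Salmon 1.4.0, MultiQC 1.13, FastQC 0.11.9, Trim Galore 0.6.7 and the build GRCm38, with NuGEN Ovation kits in the labels, whereas the study's methods name TruSeq, TopHat and htseq-count. Annotation release, strandedness and filters are not given in the sources used, so overlapping and antisense genes cannot be separated.

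All genes were fitted together in edgeR 4.0.16 (R 4.3.3; filterByExpr at a minimum count of 10, TMM, glmQLFit, quasi-likelihood F-test, Benjamini-Hochberg adjusted p under 0.05, no covariate), giving 14927 genes tested, and DESeq2 1.42.0 was run as an alternative. Standard errors are the log2 difference over the root of F. CPM use the TMM-scaled library sizes (factors 0.423 to 2.68). A gene without counts in a group was set at 3 counts over that group to give a bound, and genes with 1 to 3 counts carry an exact Clopper-Pearson interval at 95% of the ratio of pooled levels. Gene coordinates and exon lengths are those of GENCODE M21, matched by symbol for 72 of 74 members (97.4% of all genes), and promoters those of RefSeq. The fit was tested on simulated counts. Tables and figures were made in Python 3.11.15 (matplotlib 3.10.9, scipy 1.17.1, pandas 2.3.3, numpy 2.4.6).

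The members and gene lists were chosen with earlier results of these data known. Named were Foxj1, Ccdc39 and Ccdc40, in each class the 2 members with the highest mean of the group means of CPM per kb, in each comparison up to 6 members with the largest called log2 difference, and in each astrocyte library the 2 members with at least 20 counts that stood furthest above the other libraries. Other genes in the text were chosen after their values were seen. Alternatives were other scalings, no filter, DESeq2, fits of the 2 groups alone, each library left out, the replicate number as a block and the 6 Ai47 libraries averaged into 1.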

Additional observations from a re-analysis of the deposited data

Results flagged for a closer look

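Of 61 sets of 6 libraries (each named member and the summed level, in cortex and in Ai47 aSMCs), 23 had 1 library whose gap to the others passed Dixon's 95% limit. The limit's chance rate of about 1 in 20 holds for normally distributed values and cannot be set against this count. Where a single library has counts and the others are at 0, the limit is passed whatever the level. In cortex these were replicate 1 for Spag6l (1.14 CPM), Rsph1 (2.05 CPM), Tekt1 (0.456 CPM), Tekt4 (1.71 CPM) and Cfap70 (0.114 CPM), replicate 2 for Spag17 (0.0796 CPM), replicate 3 for Rsph4a (17 CPM) and Rsph14 (0.624 CPM), replicate 4 for Drc7 (1.58 CPM) and replicate 6 for Cfap74 (12.9 CPM). In Ai47 aSMCs they were replicate 1 for Cfap410 (2.88 CPM), replicate 2 for Dnah7a (4.16 CPM) and Cfap69 (0.171 CPM), replicate 3 for Rsph4a (17.7 CPM) and Spag17 (5.19 CPM), replicate 4 for Drc7 (0.737 CPM), Cfap206 (0.0368 CPM) and Cfap43 (0.221 CPM), replicate 5 for Foxj1 (1.05 CPM) and Tekt4 (0.0404 CPM), and replicate 6 for Tekt1 (3.6 CPM), Tekt3 (0.0364 CPM) and Cfap161 (0.582 CPM). Several of these rest on very few counts.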

How the results depend on the processing

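Of the 53 members higher in astrocytes than in cortex, 41 kept the call with each of 9 libraries left out, 43 under 5 other choices (2 other scalings, no mitochondrially encoded genes, no filter and DESeq2), and 29 in all 17 settings run. Counts higher ran from 44 to 48 with a library left out, and counts lower from 1 to 2, with 2 in DESeq2. Against Ai47 aSMCs the leave-one-out counts were 45 to 50 higher and 3 to 4 lower, and 13 were higher with the 6 Ai47 libraries averaged into 1 (2.90% of all genes). Against Ai14 aSMCs they were 2 to 19 higher and 0 to 1 lower, with 10 higher (2.34% of all genes) and 0 lower (2 at an unadjusted p under 0.05) by library totals alone, 39 higher in DESeq2 (8.91%), and 0 higher and 0 lower in edgeR with the 2 groups alone, where no gene at all was called, and 36 members were higher and 1 lower at an unadjusted p under 0.05. For Ai47 aSMCs against cortex they were 6 to 9 higher and 8 to 14 lower, with 3 and 23 by library totals (14.2% and 39.0% of all genes), 3 and 1 with the 6 libraries averaged (10.7% and 3.39%), and 2 lower with the 2 groups alone (25%). For Ai14 aSMCs against cortex they were 0 to 3 higher and 0 lower, with 10 higher by library totals (7.15% of all genes), 2 higher by RLE size factors (2.65%), 2 without mitochondrially encoded genes (3.32%), 2 without a filter (2.01%), 1 in DESeq2 (2.45%), and 0 higher (2 at an unadjusted p under 0.05) and 2 lower with the 2 groups alone (6.89% and 11.4%). For Ai14 against Ai47 aSMCs they were 3 to 16 higher and 1 to 4 lower, with 39 and 1 by library totals (44.2% and 3.58% of all genes), 12 higher with the 2 groups alone (19.3%), and 0 higher (5 at an unadjusted p under 0.05) and 1 lower with the 6 libraries averaged (0.314% and 2.23%). The cause of these shifts was not tested. Fits with a group of 1 library assume that it varies like the other groups.

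Library totals in place of TMM moved the median log2 difference of all genes to 2.59 for Ai14 against Ai47 aSMCs, 1.89 for astrocytes against Ai47 aSMCs, 1.18 for Ai14 aSMCs against cortex, 0.80 for astrocytes against cortex and -1.50 for Ai47 aSMCs against cortex. The mean summed level became 9440, 385, 639 and 1227 CPM in astrocytes, cortex, Ai14 and Ai47 aSMCs, and without mitochondrially encoded genes 6463, 415 and 4424 CPM in astrocytes, cortex and Ai47 aSMCs. Directions turned for Dnah14 between astrocytes and cortex without astrocyte replicate 1 (-0.50 in a range of -0.50 to 0.89), for Cfap74 without astrocyte replicate 3 (-8.98 in a range of -8.98 to 1.88), and for Cfap70 (-1.89 in a range of -1.89 to 7.39) and Foxj1 (-0.59 in a range of -0.59 to 2.99) between Ai14 aSMCs and cortex without replicate 7. None of these but Cfap70 had passed the test. Of the other single-gene values, 45 lost and 1 gained the threshold with a library left out, and 36 lost and 2 gained it under other choices. The exact permutation p of Foxj1 stayed at 0.0119 in astrocytes against cortex under pseudocounts of 0.1 and 1 and library totals.

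Correlations of same-numbered samples' deviations were -0.0505 to 0.0323, and 1 of 12, 2 of 6 and 0 of 6 samples correlated best with their own number. Such correlations cannot decide whether same-numbered libraries came from the same animals. The paper states that part of the cortices dissociated for sorting was kept as the control. With the replicate number as a block, 33 members (beside 5.49% of all genes) were higher in astrocytes than in cortex and Cfap74 differed by -1.26, and 5 members (beside 23.3%) were lower in Ai47 aSMCs than in cortex.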
